A study of Saccharomyces cerevisiae with 8 samples.

Results

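The lower part of glycolysis turns glyceraldehyde 3-phosphate into pyruvate, and in *Saccharomyces cerevisiae* 8 nuclear genes encode its main enzymes. They are TDH1, TDH2 and TDH3 (glyceraldehyde-3-phosphate dehydrogenase), PGK1 (phosphoglycerate kinase), GPM1 (phosphoglycerate mutase), ENO1 and ENO2 (enolase) and CDC19 (pyruvate kinase). These 8 of 6002 nuclear protein-coding genes were taken by name, and the promoter of each, the 500 bp before its start codon, was searched for Rap1 peaks. The peaks came from Rap1 ChIP-seq, in which chromatin bound by Rap1 is recovered with an antibody and its DNA is sequenced. Cultures had been kept in YPD, a rich glucose medium, for 14 d (stationary phase) or 16 h, with 2 biological repeats per time, and each of the 4 ChIP libraries was paired with an input library without antibody.

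All cultures were labelled with strain JDY86, so no genotype differs between the times. The study's methods give this strain as MATa with the deletions ura3Δ0, met15Δ0, leu2Δ0, trp1Δ63 and his3Δ200, an allele printed as K2Δ0, and HIS3 under the MFA1 promoter at can1 (can1::MFA1pr-HIS3). Of its native histone H3-H4 gene pairs, hht1-hhf1 is replaced by NatMX4, and the hht2-hhf2 locus carries a synthetic histone H3-H4 cassette with URA3. Its H3 and H4 therefore come from a single integrated cassette. The chromatin came from bulk cells, so quiescent and non-quiescent cells were not separated and a peak is an average over both.

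Rap1 is a DNA-binding protein of telomeres that also sits at the promoters of ribosomal protein and glycolytic genes. At glycolytic promoters it is known to act together with Gcr1 and Gcr2, the activators that give these genes their high transcription on glucose. The isozymes have different known uses: TDH3 is the main dehydrogenase gene of growing cells and TDH1 is used in stationary phase, while ENO2 is induced by glucose and ENO1 is less dependent on it.

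The lists held 95 and 564 nuclear peaks in the 14 d repeats 1 and 2, and 84 and 480 in the 16 h repeats. Each peak has a summit, its highest point, and a fold enrichment, the number of fragments over the summit (the pileup) divided by the local background, each with 1 added. The lowest background of a list is a relative measure of depth, and it was 1.71 and 11.7 fragments at 14 d and 0.414 and 8.87 fragments at 16 h. By this measure the depth of repeat 2 exceeded that of repeat 1 by 6.87 times (14 d) and 21.4 times (16 h). A missing peak in a repeat 1 list therefore says less than one in a repeat 2 list, and most of what follows rests on the repeat 2 lists, with 1 library per time.

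Rap1 peaks were listed at 6 of the 8 promoters. At 14 d, no member had a peak in repeat 1, and TDH3, PGK1, ENO1 and CDC19 had 1 each in repeat 2. At 16 h, TDH3 had a peak in repeat 1, and TDH3, PGK1, GPM1, ENO1, ENO2 and CDC19 had 1 each in repeat 2. TDH1 and TDH2 had none in any list. No member was listed in all 4 libraries, and TDH3 came nearest with 3.

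Set against the whole genome, 0 of 8 members (14 d repeat 1) stood beside 1.68% of all promoters with a peak, and 4 of 8, or 50% (14 d repeat 2), beside 11.4%. At 16 h, 1 of 8 (repeat 1) stood beside 1.2%, and 6 of 8, or 75% (repeat 2), beside 9.18%. In the long lists the members' share was higher than that of all genes at both times, which is a description of named genes and was not tested. The number of members with a peak was 2.0 ± 2.83 at 14 d and 3.5 ± 3.54 at 16 h (SD, n = 2 each). The difference of -1.5 was smaller than the spread between repeats (exact permutation test, two-sided, p = 0.667), and 2 libraries against 2 cannot give a p under 0.33. It was -1 in repeat 1 and -2 in repeat 2.

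**Figure D1:**
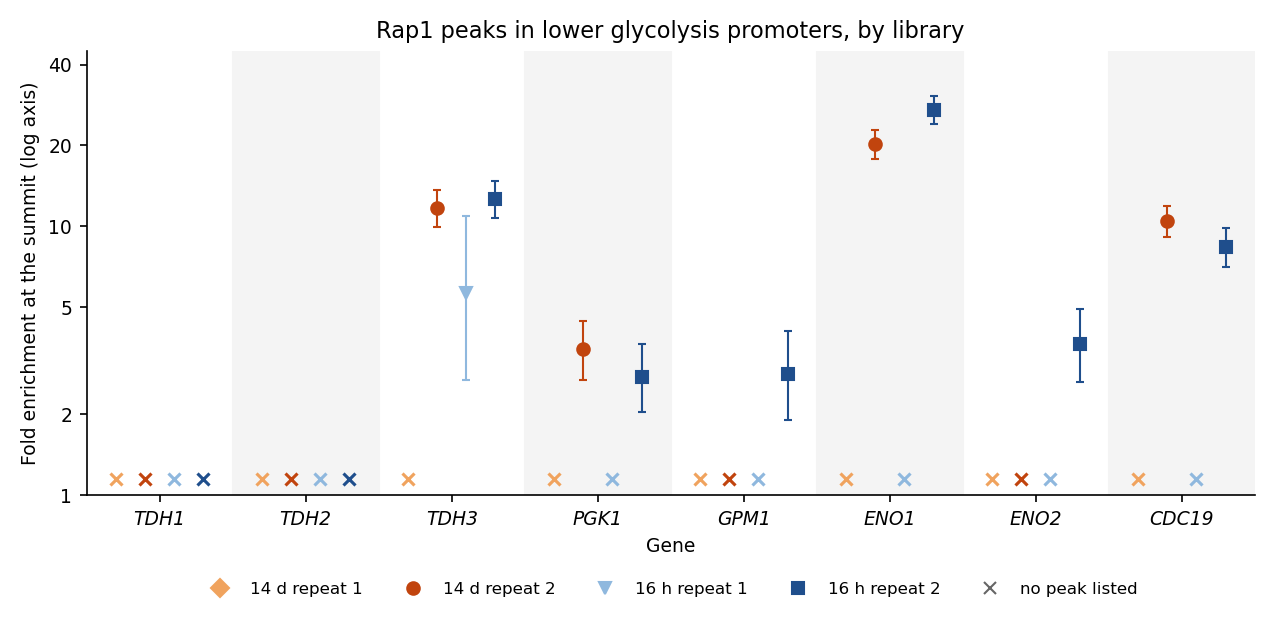
Fold enrichment of the promoter peak (log axis) of each gene in the 14 d and 16 h libraries, with exact 95% Poisson intervals of the summit pileup as bars, and crosses where no peak was listed. ENO1 stands highest at 20.2 (14 d) and 27.2 (16 h), and TDH1 and TDH2 show crosses only.

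The 3 glyceraldehyde-3-phosphate dehydrogenase genes differed in whether Rap1 was listed at all. TDH3 (YGR192C, chromosome VII 882812 to 883810, minus strand) had a fold enrichment of 11.7 in 14 d repeat 2 (95% interval 9.93 to 13.6, from 157 fragments at the summit). It had 5.66 in 16 h repeat 1 (2.70 to 10.9, from 7 fragments) and 12.7 in 16 h repeat 2 (10.8 to 14.8, from 154 fragments). By fold, the value of 14 d repeat 2 lay between those of the 16 h repeats, and the intervals of the repeat 2 libraries overlapped. As log2 enrichment, the log2 of the pileup over the genome background, it was 3.74 in 14 d repeat 2 and lay below both 16 h repeats (4.08 and 4.12). The 4.08 of repeat 1 comes from 7 fragments (interval 2.81 to 14.4), so it was not resolved from 3.74. These intervals cover counting error of the pileup only, and fragments copied by PCR would make them too narrow.

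At TDH1 (YJL052W, chromosome X 338271 to 339269, plus strand) and TDH2 (YJR009C, chromosome X 453683 to 454681, minus strand), no list had a peak within 1000 bp either. Their divergent neighbours are YJL052C-A and MET3. The summit nearest to the TDH1 start codon lay 19938 bp downstream in 14 d repeat 2 and 22553 bp downstream in 16 h repeat 2. The nearest to TDH2 lay 49592 bp (14 d repeat 2) and 62691 bp (16 h repeat 2) downstream. Both genes therefore sat in stretches of chromosome X with no called Rap1 site. TDH3 stood 4.96 times (14 d) and 5.16 times (16 h) above the lowest fold enrichment that repeat 2 listed at its genome background, 2.36 and 2.45. An unlisted promoter has no measured value, so a fold between isozymes was not computed here, and a weak signal at TDH1 or TDH2 was not detectable at this depth. Having no peak in any list was common, at 87.7% of all genes.

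Enolase showed the other isozyme contrast, this time between a strong and a weak peak. ENO1 (YGR254W, chromosome VII 1000927 to 1002240, plus strand) had a fold enrichment of 20.2 in 14 d repeat 2 (17.8 to 22.8, 256 fragments) and 27.2 in 16 h repeat 2 (24.1 to 30.6, 270 fragments). ENO2 (YHR174W, chromosome VIII 451327 to 452640, plus strand) had no peak at 14 d and 3.65 in 16 h repeat 2 (2.64 to 4.94, 40 fragments). In that library ENO1 was 7.44 times as enriched as ENO2. The log2 difference, ENO2 minus ENO1, was -2.90 with a counting interval of -3.37 to -2.42, and it rests on 1 library, so no test over replicates was possible. In 14 d repeat 2 the order was the same as far as it could be seen, with ENO1 at 8.57 times the lowest fold enrichment listed at the genome background and ENO2 unlisted.

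PGK1, GPM1 and CDC19 encode single main enzymes. CDC19 (YAL038W, chromosome I 71786 to 73288, plus strand) was the third strongest member, with 10.5 in 14 d repeat 2 (9.13 to 11.9, 220 fragments) and 8.37 in 16 h repeat 2 (7.05 to 9.87, 140 fragments). PGK1 (YCR012W, chromosome III 137746 to 138996, plus strand) was weak at both times, with 3.49 in 14 d repeat 2 (2.69 to 4.45, 63 fragments) and 2.77 in 16 h repeat 2 (2.05 to 3.66, 47 fragments). GPM1 (YKL152C, chromosome XI 163642 to 164385, minus strand) was listed in 16 h repeat 2 alone, at 2.84 (1.90 to 4.08, 27 fragments). In 16 h repeat 2 the intervals of PGK1, GPM1 and ENO2 overlapped, so the order among these weak members was not resolved. Those of CDC19, TDH3 and ENO1 lay above them and did not overlap one another. In 14 d repeat 2 the order ENO1, TDH3, CDC19, PGK1 was the same, but the intervals of TDH3 and CDC19 overlapped.

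The background under the peaks differed among the members. It was 1.72 times (14 d) and 1.79 times (16 h) the genome background at CDC19, and 1.48 and 1.84 times at PGK1. At ENO1 it was 1.00 (14 d) and 1.01 (16 h) times, and at GPM1 1.00 times. Since fold enrichment divides by this background, CDC19 had nearly as many fragments over its summit as ENO1 in 14 d repeat 2 (220 and 256) at a fold of 10.5 against 20.2. As log2 enrichment, which leaves the local background out, CDC19 (4.23) stood above TDH3 (3.74) in 14 d repeat 2 and below it in 16 h repeat 2 (3.98 and 4.12). The order of these genes at 14 d thus depended on the measure. In 16 h repeat 2 the pileup intervals overlapped, at 118 to 165 fragments (CDC19) and 131 to 180 (TDH3). Log2 enrichment therefore did not resolve their order at 16 h.

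Within their lists the members were spread from high to low. ENO1 ranked 120 of 564 peaks by fold enrichment in 14 d repeat 2 and 46 of 480 in 16 h repeat 2. TDH3 ranked 220 (14 d) and 165 (16 h), and CDC19 242 and 225, close to the middle. PGK1 ranked 460 (14 d) and 457 (16 h), while ENO2 and GPM1 ranked 407 and 448 in 16 h repeat 2. In 16 h repeat 1 TDH3 ranked 60 of 84. As multiples of the median fold of the list, ENO1 reached 2.51 (14 d) and 3.50 (16 h) and PGK1 0.434 and 0.356.

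**Figure D2:**
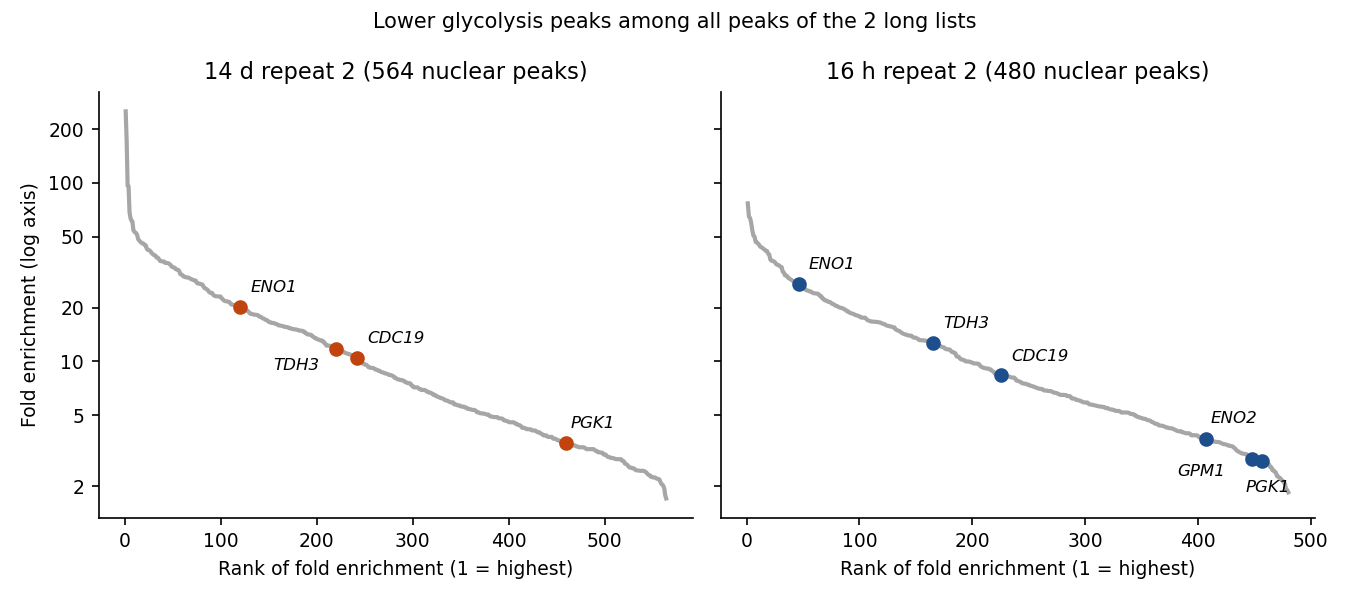
Fold enrichment (log axis) of every nuclear peak against its rank in 14 d repeat 2 (left) and 16 h repeat 2 (right), with the peaks of lower glycolysis promoters as named points. ENO1 sits at rank 120 (14 d) and 46 (16 h), and PGK1 in the lower part of each list at ranks 460 of 564 and 457 of 480.

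The members' median fold enrichment was 11.1 in 14 d repeat 2 (4 genes) and 6.01 in 16 h repeat 2 (6 genes), against 9.23 and 8.21 for all promoters with a peak there. For 137 ribosomal protein genes, the best known promoter targets of Rap1, the medians were 18.6 (124 genes) and 15.8 (121 genes). The members' median percentile of fold was 59.2 in 14 d repeat 2 and 34.4 in 16 h repeat 2. This gap of 24.8 points was not seen over the 4 genes with a peak in both lists, whose median was 59.2 (14 d) and 59.6 (16 h), since it is the weak GPM1 and ENO2 peaks that enter at 16 h alone. These 4 genes shifted in both directions, by -11.7 points (ENO1), -4.66 (TDH3), 3.94 (CDC19) and 13.6 (PGK1), 14 d minus 16 h.

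Between the repeat 2 libraries, the log2 fold enrichment at 14 d minus 16 h was -0.43 at ENO1 (counting interval -0.68 to -0.18) and -0.12 at TDH3 (-0.44 to 0.20). It was 0.34 at PGK1 (-0.21 to 0.88) and 0.32 at CDC19 (0.02 to 0.63). Of these 4 genes, 2 were therefore higher and 2 lower in value at 14 d, with the intervals of ENO1 and CDC19 away from 0 on opposite sides. The median over the 431 peaks of 16 h repeat 2 that overlapped a 14 d repeat 2 peak was 0.30, with 69.6% above 0. PGK1 and CDC19 lay near that median. ENO1 lay low, with 10.4% of these peaks at or below its difference, and TDH3 had 24.4% at or below. With 1 library per time there is no replicate check of these differences.

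GPM1 and ENO2 were listed in 16 h repeat 2 and not in 14 d repeat 2. Among all genes with a promoter peak in 16 h repeat 2, 9.26% (51 of 551) lacked one in 14 d repeat 2, which is 0.85% of all genes, and here it was 2 of 6. No member was listed in 14 d repeat 2 alone of the pair, where 3.1% of all genes were. Both were weak peaks in 16 h repeat 2. Of the 33 peaks there with a fold no higher than that of GPM1, 19 (57.6%) overlapped a 14 d repeat 2 peak, and of the 74 no higher than ENO2, 52 (70.3%) did. Folds as low as theirs were listed in 14 d repeat 2 too, where 54 peaks were below 2.84 and 115 below 3.65. Scaled to the depth of 14 d repeat 2, their pileups would be 35.7 fragments (GPM1) and 52.9 (ENO2), above the lowest pileup of 29 listed there at the genome background. The GPM1 value comes from 27 fragments, with a counting interval of 17.8 to 39.3 before scaling, so it was not resolved from 29. Such scaling assumes that enrichment does not change with depth, which was not tested. A peak in 14 d repeat 2 had its summit 1687 bp upstream of GPM1, with a fold of 4.32, outside both windows. That summit lay upstream of the start codon of the neighbouring gene NNR2 (164917 to 165930). The edge of the peak (165917 to 166229) reached into NNR2.

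All summits of the 11 member peaks lay upstream of the start codon, by 380 to 654 bp, with a median of 468 bp (SD 86.3 over peaks). A gene listed in more than 1 library counts more than once in these values. At ENO1 the summit was 466 bp upstream in 14 d repeat 2 and 468 bp in 16 h repeat 2, and at CDC19 653 and 654 bp. At PGK1 it was 484 bp (14 d) and 457 bp (16 h). GPM1 had its summit 380 bp and ENO2 431 bp upstream, at 16 h. TDH3 varied most, with 518 bp in 14 d repeat 2 against 441 bp (repeat 1) and 474 bp (repeat 2) at 16 h.

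The 44 bp by which the TDH3 summit differed between the repeat 2 libraries was more than most, since the median shift of the 431 shared peaks was 8 bp and 8.58% shifted by at least as much. The 16 h repeats themselves differed by 33 bp at TDH3, with 7 fragments at the summit in repeat 1. By contrast, the shifts at ENO1 and CDC19 were 2 bp and 1 bp. The members' median of 501 bp (14 d repeat 2) and 462.5 bp (16 h repeat 2) was farther upstream than that of all promoters with a peak, 366 and 343 bp, and of ribosomal protein genes, 332 and 330 bp. In 16 h repeat 2, 234 of 551 such promoters had a summit at least 380 bp upstream, the distance of the nearest member. The promoter window sets part of this distance, as a peak must reach into it.

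**Figure D3:**
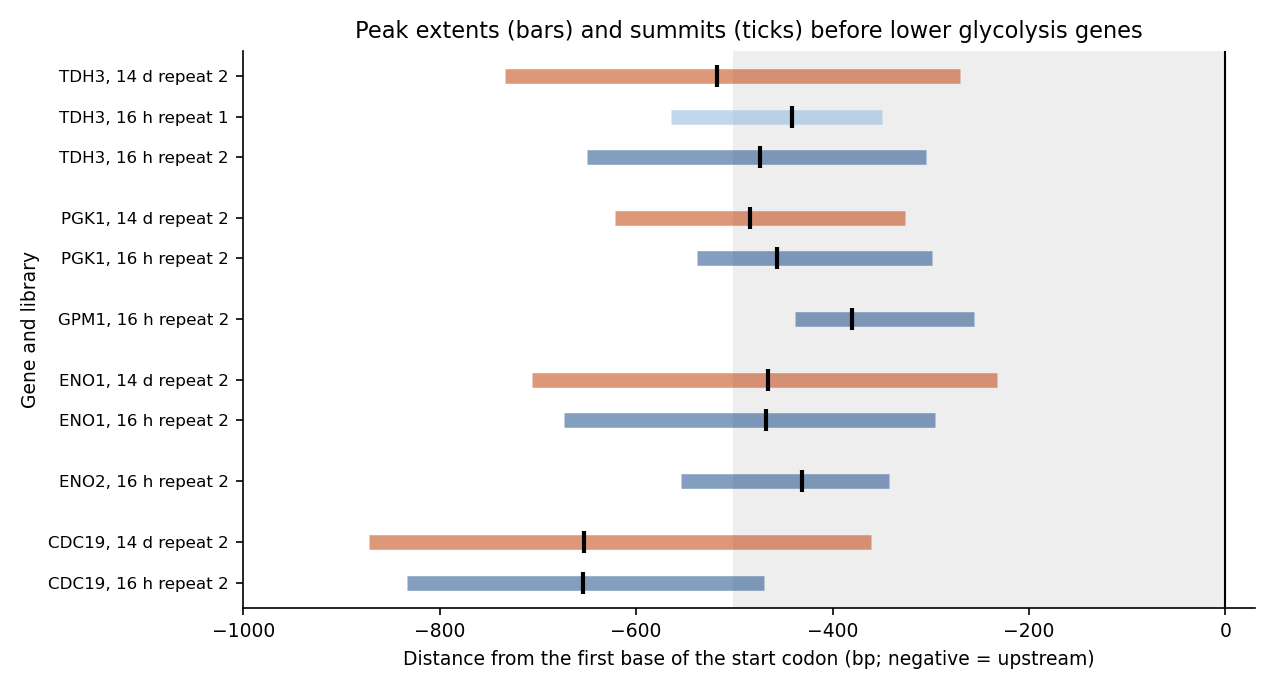
Extent (bars) and summit (black ticks) of each member peak in bp from the start codon, with 14 d libraries in orange and 16 h libraries in blue, and the 500 bp window shaded. The 11 summits lie 380 to 654 bp upstream, and those of ENO1 and CDC19 coincide within 2 bp between times.

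The window decided 1 gene more than the others. The CDC19 peak reached into the 500 bp window by 140 bp (14 d) and 31 bp (16 h), although its summit lay outside, and the TDH3 summit was 18 bp outside in 14 d repeat 2. With a window of 1000 bp the same genes had a peak in each list, beside 2.33% and 13.7% of all genes in the 14 d repeats and 1.73% and 11.6% in the 16 h repeats. When the summit itself had to lie within 500 bp, CDC19 was lost at both times and TDH3 at 14 d, which left 0 and 2 members at 14 d and 1 and 5 at 16 h, against 0.983% and 7.78% (14 d) and 0.966% and 7.03% (16 h) of all genes.

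Most of these sites lay between genes. The TDH3 summits were in the 698 bp between TDH3 and PDX1, and the GPM1 summit in the 531 bp between GPM1 and NNR2, both tandem neighbours, so that no other start codon faces these sites. CDC19 and ENO1 face a divergent gene at a distance of 2260 bp (CYC3) and 1786 bp (PUP2), and their summits were 1608 and 1321 bp from those start codons at 14 d and 1607 and 1319 bp at 16 h. The PGK1 peak is less clear, since PGK1 and ADP1 diverge from the same 872 bp. Its summit was 389 bp (14 d) and 416 bp (16 h) from the ADP1 start codon, nearer than to that of PGK1. The ENO2 summit lay inside YHR173C, an open reading frame on the opposite strand, 257 bp from its start codon. It was thus not in the 173 bp between ENO2 and YHR173C, unlike the PGK1 summits, which lay between PGK1 and ADP1. From these lists the PGK1 peak cannot be assigned to either gene of its pair. Which gene the ENO2 peak serves was not tested either.

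Where a member was listed at both times, the peak was wider at 14 d. TDH3 spanned 465 bp (14 d repeat 2) and 346 bp (16 h repeat 2), ENO1 475 and 379 bp, CDC19 512 and 364 bp and PGK1 297 and 240 bp. The 14 d peak contained the whole 16 h peak at TDH3, ENO1 and CDC19 but not at PGK1. The differences of 57 to 148 bp stood beside a median of 132 bp over the 431 shared peaks, of which 96.5% were wider at 14 d.

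Of the members listed in 16 h repeat 2, the strongest was not the one listed in repeat 1. The pileup of each repeat 2 peak was scaled by the ratio of genome backgrounds to the depth of repeat 1. At 16 h this gave 12.6 fragments at ENO1, 7.20 at TDH3 and 6.54 at CDC19, all above the lowest pileup of 5 listed in repeat 1 at its genome background. Of these only TDH3 was listed there, although ENO1 was stronger in repeat 2. The local background in 16 h repeat 2 was 1.79 times the genome background at CDC19 and 1.27 times at TDH3. The lowest pileup at the genome background is thus a loose guide for these genes, and the absence of CDC19 cannot be read from it. PGK1, ENO2 and GPM1 came to 2.20, 1.87 and 1.26 fragments, under that lowest pileup.

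At 14 d, ENO1 (37.3 fragments), CDC19 (32.0) and TDH3 (22.8) were above 10, the lowest pileup listed in repeat 1 at its genome background. PGK1 (9.17) was just under it, and none was listed. The local background in 14 d repeat 2 was 1.72 times the genome background at CDC19 and 1.48 times at PGK1. For these 2 genes the lowest pileup is again a loose guide. Over whole lists, 92 of 564 peaks of 14 d repeat 2 and 83 of 480 peaks of 16 h repeat 2 overlapped a repeat 1 peak, and the share was larger among stronger peaks. Of the peaks with a fold at least that of PGK1, 20.0% (14 d) and 18.2% (16 h) did. Of those with a fold at least that of ENO1, 64 of 121 (52.9%) did at 14 d and 33 of 46 (71.7%) at 16 h. Among peaks of that strength over 20 kb from a chromosome end, the counts were 49 of 100 (14 d) and 17 of 30 (16 h). The scaling assumes that enrichment does not change with depth, which was not tested.

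**Figure D4:**
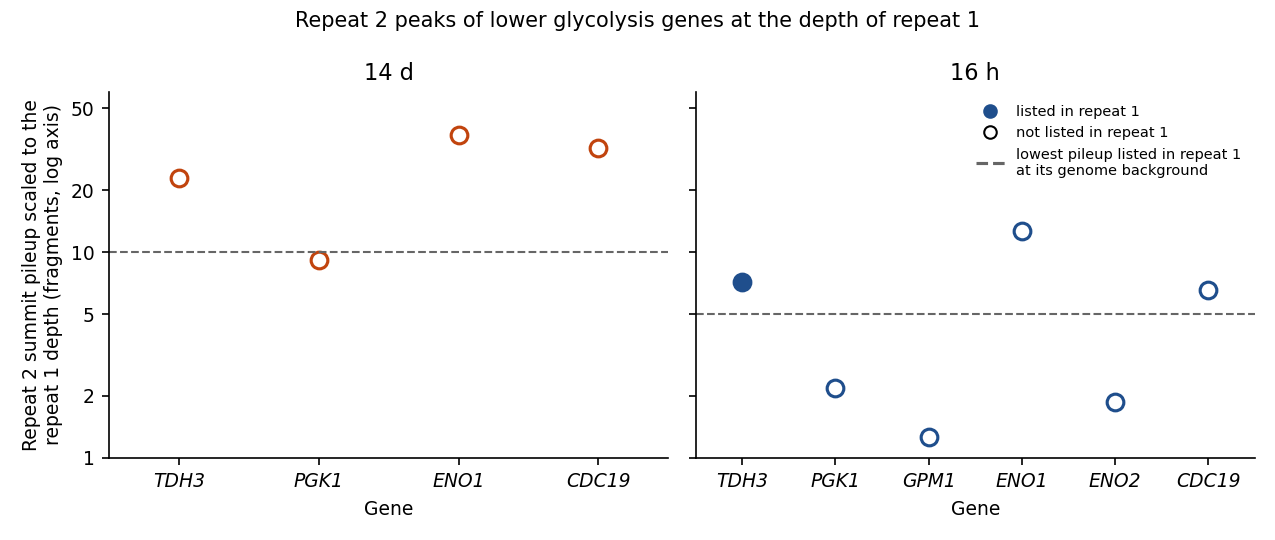
Summit pileup of member peaks in repeat 2, scaled to the depth of repeat 1 (fragments, log axis), at 14 d (left) and 16 h (right). Filled points were listed in repeat 1, open points were not, and the dashed line is the lowest pileup listed there at the genome background (10 at 14 d, 5 at 16 h), with ENO1 above it at 37.3 and 12.6 and listed in neither.

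The rest of the pathway was read in the same way from 22 genes. The shares of all genes to set beside these counts are again 1.68% and 11.4% in the 14 d repeats and 1.2% and 9.18% in the 16 h repeats. Of 8 upper glycolysis genes, 1 and 5 were listed in the 14 d repeats and 0 and 6 in the 16 h repeats, close to the members' counts. TPI1, the triose phosphate isomerase gene, resembled GPM1 and ENO2 in having a weak peak in 16 h repeat 2 (4.19) and none at 14 d. HXK1, PGI1, PFK2 and FBA1 were listed at both times in repeat 2, between 4.21 and 7.79 at 14 d and between 3.85 and 7.30 at 16 h. GLK1, for glucokinase, had 11.1 and 31.8 in the 14 d repeats and 7.27 in 16 h repeat 2, larger than any member at 14 d, with its summit 57 to 78 bp from the start codon. GLK1 and PFK2 are divergent from PDI1 and YMR206W, so their peaks cannot be assigned to either gene of a pair. PFK1 was listed with the 1000 bp window only, at 5.94 in 14 d repeat 2 and 3.53 in 16 h repeat 2.

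Of 8 fermentation genes, 0 and 3 were listed in the 14 d repeats and 0 and 4 in the 16 h repeats. ADH1, the main alcohol dehydrogenase gene of fermenting cells, had 25.8 in 14 d repeat 2 and 20.2 in 16 h repeat 2, near the level of ENO1. PDC1, for pyruvate decarboxylase, had 9.41 (14 d) and 10.2 (16 h), near that of CDC19, and ADH3 had 4.00 and 3.84. PDC6 was listed in 16 h repeat 2 alone, at 3.55. With 1000 bp, ADH1 was also listed in 16 h repeat 1, at 7.01. The strongest ADH3 peak was then 13.7 (14 d repeat 2) and 18.8 (16 h repeat 2), with its summit 1096 and 1097 bp upstream. PDC6 and ADH3 are divergent from CTT1 and YMR082C, so their peaks cannot be assigned to either gene of a pair.

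The minor paralogs of lower glycolysis enzymes had a different pattern by the 500 bp window, with 4 of 6 listed in 14 d repeat 2 and 0 in the other lists. They were PYK2, a second pyruvate kinase gene (39.4), GPM2 (7.54) and the enolase-related ERR1 (5.99) and ERR2 (5.67). All 4 summits lay beyond the window, 569 to 834 bp upstream, so only the edge of the peak reached into it. With 1000 bp, PYK2 had 20.3 and 39.4 in the 14 d repeats and 18.2 in 16 h repeat 2. ERR1 and ERR2 are near-identical copies close to chromosome ends, so reads may be shared between them and their values are uncertain. They are divergent from HSP33 and HSP32, so their peaks cannot be assigned to either gene of a pair. At PYK2 the upstream gene PUT4 is in tandem, and the enrichment exceeded that of CDC19 in each repeat 2 list. The PYK2 peak of 14 d repeat 2 ran from 986952 to 988506 on chromosome XV. Whether it lay over PUT4 itself was not examined, so it is not shown to be a PYK2 promoter site.

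**Figure D5:**
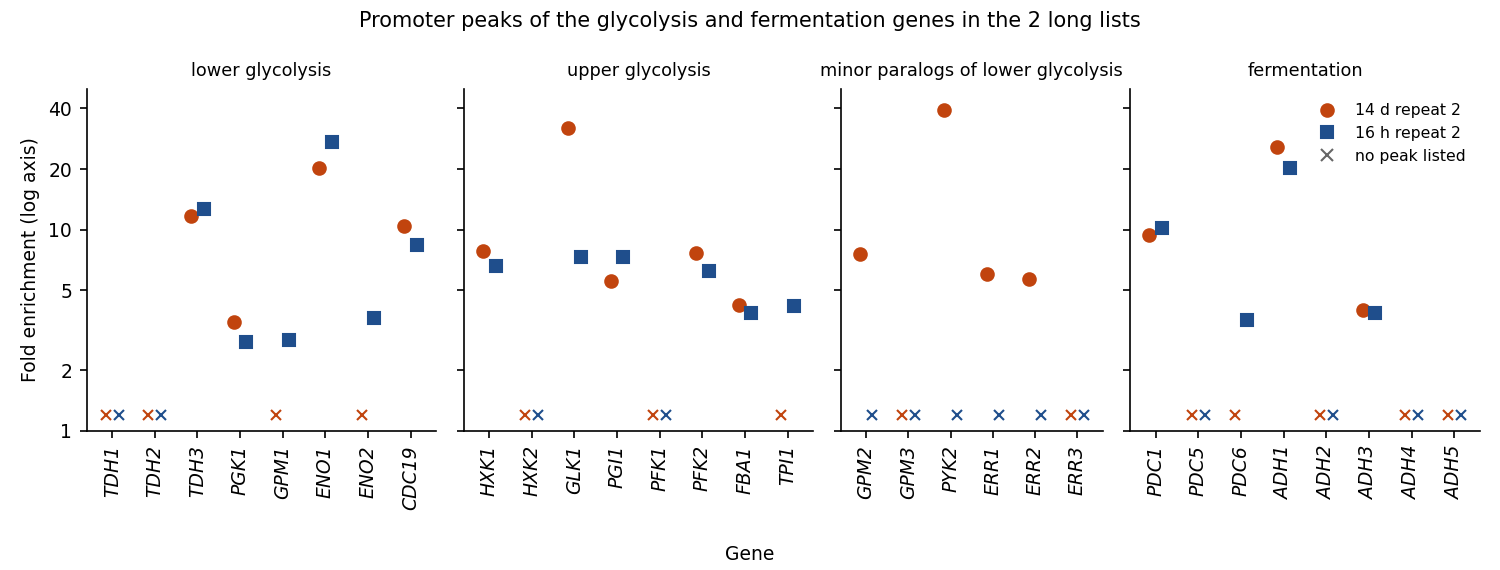
Fold enrichment (log axis) of the promoter peak of members and of 22 other genes of glycolysis and fermentation in 14 d repeat 2 (circles) and 16 h repeat 2 (squares), with crosses where no peak was listed. PYK2 at 39.4 (summit 834 bp upstream, outside the 500 bp window) and GLK1 at 31.8 are the highest points at 14 d. ENO1 at 27.2 is the highest at 16 h.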

How the data were processed

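Rap1 peak lists of 4 ChIP libraries were analysed, and the 4 input libraries entered only through peak calling. Per the labels and the methods, the authors cleaned the paired-end reads (Trim Galore), aligned these to R64 (Bowtie2) and ran MACS2 with the input of each library as control, which gave 1 narrow-peak list per library. Versions and settings are not given in the sources used here. Peak names of 14 d repeat 2 call it a merge, so runs may have been pooled. The deposited fold enrichment is a ratio that moves with depth. The authors also deposited −log10 p and −log10 q values and a score (10 times the −log10 q, truncated). Start codons came from the RefSeq table of the same release (6477 rows). A peak counted when it overlapped a promoter by at least 1 bp, and the strongest was used.

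Pileup and background were solved from fold and −log10 p (a Poisson tail, checked on simulated data) and met both within a relative tolerance of 0.0001 for 100% of peaks. This assumes that the ChIP pileup was not scaled. The number of members per library was tested by exact permutation, two-sided. Alternatives were the window, the summit rule, a −log10 q minimum, shorter lists, left-out libraries and a replicate block. Mitochondrial peaks (14 and 0 at 14 d, 3 and 0 at 16 h) were left out. Intervals are exact 95% Poisson intervals, and those of log2 differences use the counting SE. Python 3.11.15, scipy 1.17.1 and matplotlib 3.10.9 were used. Nothing in the labels ties libraries of equal repeat number together. The 8 members were all named, as were pathway genes with a peak and divergent neighbours. The members and lists were chosen with earlier results of these data known. Sequence was not used here.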

Additional observations from a re-analysis of the deposited data

How the results depend on the processing

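The difference in the number of members with a peak (-1.5, 14 d minus 16 h) kept its sign with a window of 1000 bp (-1.5), with the summit inside the window (-2), with peaks under a −log10 q of 5 removed (-0.5) and with the top 84 peaks of each list (-1). Without 1 library it ranged from -4 (without 16 h replicate 1) to 1 (without 16 h replicate 2), and it was 0.5 without 14 d replicate 1, so its sign rests on which libraries are kept. With repeat number as a replicate block it was -1.5 (sign-flip permutation, exact p = 0.5, the smallest that 2 pairs allow), and with 2 pairs a link between cultures of equal number cannot be shown. Under that limit on q, GPM1 was no longer listed, nor was TDH3 in 16 h repeat 1.

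The gap in median percentile of fold between the repeat 2 lists (24.8 points) was 33.3 with the summit inside the window and 6.95 under the limit on q, where fewer weak peaks remain. The median log2 difference over 4 members (0.10) was -0.18 as log2 enrichment over the genome background, a measure chosen after seeing the data, and TDH3 then stood at -0.38 and PGK1 at 0.02. The median summit distance ranged from 457 to 484 bp without 1 library. ENO2 minus ENO1 (-2.90) comes from 16 h repeat 2 alone, so leaving out another library could not change it. Each of these 2 genes had only 1 peak within 1000 bp there, so the wider window could not change it either. As log2 enrichment over the genome background, ENO2 minus ENO1 was -2.75. Fold at members in all 4 lists has no value, since no member was in all 4, nor has the percentile with the top 84 peaks, where 14 d lists held no member. Depth limits the reading of PGK1, GPM1 and ENO2 as absent from the repeat 1 lists, since their scaled pileups were under the lowest listed there.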
